A study of Homo sapiens with 9 samples.

Results

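The regions described here are binding sites of p65, the RELA subunit of NF-κB, that were called in 786-O cells under both untreated conditions (control and vehicle), were called under neither treatment (siTEAD4 or XMU-MP-1), and carried no called TEAD site. They were chosen by position from deposited lists of peaks: a control p65 peak on chromosomes 1-22 and X had to share at least 1 bp with a vehicle p65 peak, and no base with any peak of the TEAD list, the p65 list labelled siTEAD4 or the XMU-MP-1 p65 list. This left 5593 of 15432 control peaks (36.2%, 95% Wilson interval 35.5 to 37.0), out of 60345 peaks in all 5 lists. Presence or absence in the 5 lists chose the sites, so these facts are a description and carry no test. All positions are 1-based and on the hg19 build.

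786-O is a human cell line established from a clear cell renal carcinoma. The immunoprecipitates used were p65 from XMU-MP-1 cells and from vehicle cells, p65 from siTEAD4 cells and from control cells, and TEAD from XMU-MP-1 cells, with 1 library each. XMU-MP-1 inhibits the Hippo kinases MST1 and MST2; the sample titled siTEAD4 has the treatment label siTEAD, and the identifiers inside its list read p65_Vert, a name found in no label, so it is called the list labelled siTEAD4. The control samples have no treatment label, and the titles do not name the TEAD protein recognised by the antibody. TEAD was read in XMU-MP-1 cells, so "without TEAD" means without a TEAD peak under that treatment.

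NF-κB dimers that contain p65 are held in the cytoplasm by IκB proteins and, once released, bind κB sites in promoters and enhancers of inflammatory and survival genes. TEAD proteins bind DNA in the nucleus and recruit the coactivators YAP and TAZ, which the Hippo kinases keep out of the nucleus through the LATS kinases. The sites described here belong to the part of the p65 map of control and vehicle cells where no TEAD peak was called in XMU-MP-1 cells. None of the lists used gives TEAD in control or vehicle cells.

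A vehicle peak overlapped 12268 of the 15432 control peaks (79.5%), and the 5593 sites made up 45.6% of those (44.7 to 46.5). Over these 12268 peaks, 49.99% had no TEAD peak, 86.0% no peak labelled siTEAD4, 87.4% no XMU-MP-1 p65 peak and 83.0% neither treated p65 peak. Among the 6133 peaks without TEAD, 5593 (91.2%, 90.5 to 91.9) were in neither treated list, 269 in both, 195 only in the list labelled siTEAD4 and 76 only in the XMU-MP-1 list. Among the 6135 with TEAD, 4586 (74.8%, 73.6 to 75.8) were in neither. "Lost" below means that no peak was called at the site; the lists give no signal between peaks. The lowest pileup at which a peak was called, that is the number of fragments stacked at its summit after the peak caller's scaling, was 12 in the list labelled siTEAD4 and 10.96 in the XMU-MP-1 list. The lowest 5% of peaks in these lists had pileups under 17 and 15.7, and 1489 of the 5588 sites with a solved control pileup (26.6%, 25.5 to 27.8) were under the first value and 1084 (19.4%, 18.4 to 20.5) under the second, on the scale of each list. These scales and the depths behind them differ, so the shares do not count sites near a treated list's threshold. In unscaled control fragments, the 10th percentile of the sites was 23. Signal under a list's threshold at a lost site does not appear in that list. Both treated p65 lists were short as a whole, with 1649 peaks for XMU-MP-1 against 17958 for vehicle, and 1813 for the list labelled siTEAD4 against 15465 for control, while the TEAD list from XMU-MP-1 cells held 23460. The loss described here is thus part of a loss over the whole p65 map, and the part that depth or the yield of each immunoprecipitation has in it was not tested.

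The sites were of middling strength for p65 in these cells, with a tail of strong ones. Their median fold enrichment, the authors' own value of the summit over its local background, was 6.40 among control peaks (interquartile range 5.14 to 8.64) and 6.78 among vehicle peaks (5.27 to 9.20). Over the whole lists these medians were 5.98 for control and 5.87 for vehicle. The whole control list includes peaks without a vehicle peak, whose median control fold was 4.91. Among the 12268 control peaks with a vehicle peak, deciles 5 and 6 of control fold met at 6.51. The lowest control fold was 2.33 and the highest 32.96. A control fold of at least 10 was reached by 930 sites (16.6%), of at least 15 by 183 and of at least 20 by 23. Of the 1544 control peaks in the top decile of fold, 409 (26.5%, 24.3 to 28.7) were sites of this kind, against 36.2% of all control peaks. They made up 7.31% (6.66 to 8.02) of the sites, so the class was under-represented among the strongest control peaks. This follows at least in part from the rule, which leaves out peaks kept in a treated list. Peaks kept in both treated lists had a median control fold of 16.1 without TEAD and 13.2 with TEAD.

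Beyond the overlap that the rule required, the control and vehicle lists put the summits of these sites close together and ranked them partly alike. Control and vehicle summits lay 29 bp apart at the median (13 to 54), and 4050 sites (72.4%, 71.2 to 73.6) had them within 50 bp. Across the 5593 sites, control and vehicle folds had a Spearman rho of 0.56; the points share the cell line and were chosen for presence in both lists. Of the 409 sites in the top control decile, 243 (59.4%, 54.6 to 64.1) were in the top vehicle decile too. Those in the stronger part of both lists, above each median, numbered 2505 (44.8%), and those in the weaker part of both numbered 1315 (23.5%).

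**Figure D1:**
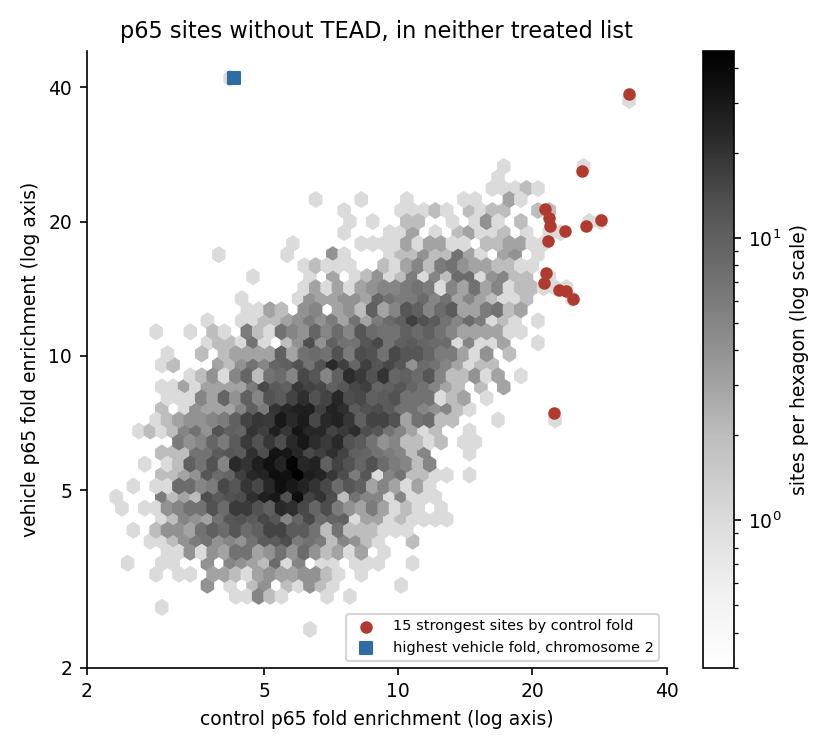
Control fold enrichment (x axis, log scale) against vehicle fold enrichment (y axis, log scale) of the 5593 p65 sites without TEAD that are in neither treated list; grey shows the number of sites per hexagon, circles the 15 sites with the highest control fold and the square the site with the highest vehicle fold. Sites scatter around the diagonal, with a ratio of vehicle to control fold of 0.595 at the 5th and 1.90 at the 95th percentile. The square combines a control fold of 4.27 with a vehicle fold of 41.9.

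At the strongest site, chromosome 11 from 109957601 to 109958137, fold was 32.96 in control and 38.6 in vehicle cells. Its control summit held 148 fragments and its vehicle summit 103, and the summits were 21 bp apart. The nearest peak labelled siTEAD4 was 5264 bp away, the nearest TEAD peak 8803 bp and the nearest XMU-MP-1 p65 peak 836860 bp. Another control peak lay 678 bp from it. The site was at percentile 99.9 of both the control and the vehicle list, with a p65 peak of the list labelled siTEAD4 close by but not on it.

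Chromosome 6 held the next site, from 18501838 to 18502451, with folds of 28.5 in control and 20.1 in vehicle cells. Unlike the first, it was far from treated p65 binding: the nearest such peaks were 795387 bp (XMU-MP-1) and 795434 bp (siTEAD4-labelled) away. On chromosome 11 from 10388059 to 10388525 the folds were 26.3 and 19.5, with the nearest TEAD peak at 8346 bp.

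The site on chromosome 19 from 45250565 to 45251084 had nearly equal folds, 25.9 in control and 26.02 in vehicle cells, and was the one site of the leading 15 with peaks of the TEAD list and both treated p65 lists within 10 kb. An XMU-MP-1 p65 peak lay 5410 bp away, a peak labelled siTEAD4 5491 bp away, a TEAD peak 4932 bp away and another control peak 601 bp away. It is also part of a run of 4 such sites, described further on.

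Several leading sites had a lower fold in the vehicle list. On chromosome 1 from 42204655 to 42205169 the folds were 24.7 in control and 13.4 in vehicle cells, and on chromosome 16 from 4303757 to 4304262 they were 23.8 and 14.0. The site on chromosome 22 from 43107694 to 43108540 differed most among the 15, with 22.4 in control and 7.44 in vehicle cells. There the pileup was 62.8 against a local background of 1.85 in the control list, and 46 against 5.32 in the vehicle list, each list on its own scale. The backgrounds were likewise 1.36 and 3.21 at the chromosome 16 site.

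The others of the 15 had control folds of 21.3 to 23.7. On chromosome 14 from 103243584 to 103244075 the folds were 23.7 in control and 19.0 in vehicle cells, on chromosome 6 from 162163100 to 162163629 they were 22.9 and 14.1, and on chromosome 19 from 48613835 to 48614401 they were 21.9 and 19.6. The chromosome 6 site stood alone, with no other control peak for 254103 bp and no TEAD peak for 279584 bp. Chromosome 8 from 81261825 to 81262355 had folds of 21.8 and 20.4 and the smallest distance between summits, 3 bp. On chromosome 11 from 11643512 to 11644094 they were 21.7 and 18.1, on chromosome 10 from 89878493 to 89878968 they were 21.4 and 15.3, on chromosome 17 from 1378017 to 1378439 they were 21.3 and 21.3, and on chromosome 20 from 48760884 to 48761395 they were 21.3 and 14.6. In this leading group 1 site had a treated p65 peak of both lists within 10 kb and 1 a siTEAD4-labelled peak only. Among the 100 sites with the highest control fold, 26 had a TEAD peak within 10 kb and 7 a treated p65 peak. Over all 5593 sites these shares were 35.4% and 7.94%.

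At the other end were the 5 sites with the lowest control fold, from 2.33 to 2.59, on chromosomes 7, 8, 20, 3 and 19. Their summits held 29 to 38 control fragments, close to the median of all the sites, 36. The local background at them was 6 to 9 in the control list, against a median of 2.22 over all 5593 sites. Their vehicle folds were 3.43 to 5.12. In these 5 sites low fold went with high background and not with few fragments. They were picked for low fold among peaks that had passed the calling threshold, so this pairing follows at least in part from the choice.

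Set against other p65 sites of both lists, those without TEAD that were lost were weaker than those without TEAD that were kept. The lost sites had a median control fold of 6.40 and a median width of 295 bp, against 16.1 (11.4 to 20.4) and 501 bp at the 269 kept in both treated lists. Sites kept in 1 treated list lay between, with a median control fold of 9.96 at the 76 kept with XMU-MP-1 and 13.1 at the 195 that only the siTEAD4-labelled list kept. The median summit held 36 control fragments at the lost and 98 at the kept sites. With the 12268 control and vehicle sites split into deciles of control fold, 98.5% (97.0 to 99.2) of the sites without TEAD were lost in the weakest decile, 92.4% (90.2 to 94.2) in decile 8 and 50.5% (46.3 to 54.6) in the strongest, from a fold of 13.6 upward. For sites with a TEAD peak these shares were 92.6% (90.5 to 94.4), 63.4% (59.3 to 67.3) and 16.4% (13.8 to 19.4). In every decile the share lost was higher without a TEAD peak. The deciles match control fold only. Median local background in the control list was 2.22 at lost sites without TEAD and 2.77 at those with TEAD. Shares at equal background or fragment number were not computed, and their part in the difference was not tested.

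**Figure D2:**
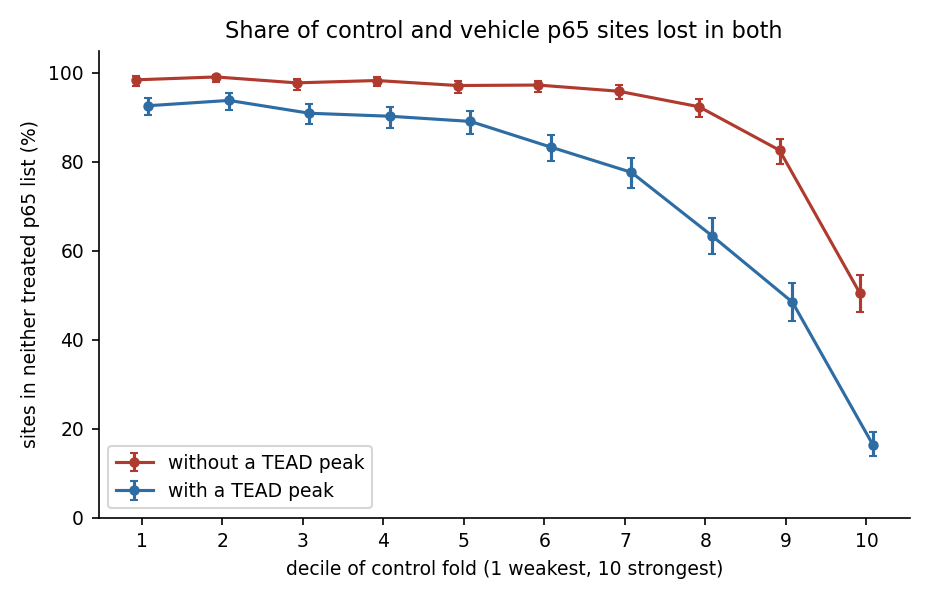
Percentage of control and vehicle p65 sites that are in neither treated p65 list (y axis), by decile of control fold from weakest to strongest (x axis), without a TEAD peak (red) and with one (blue); bars are 95% Wilson intervals that cover the counting of sites. The red points lie above the blue in all 10 deciles, and in the strongest decile stand at 50.5% and 16.4%. The deciles match control fold only, not background or fragment number.

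In the strongest decile the treated lists differed in how much of this class they left out. Of the 545 sites without TEAD there, 53.2% (49.0 to 57.4) had no peak labelled siTEAD4 and 67.7% (63.7 to 71.5) had no XMU-MP-1 p65 peak. Each list was called on its own library and depth, so the pair of shares compares lists.

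Lost sites without TEAD and lost sites with TEAD had alike numbers of fragments and unlike backgrounds. The median vehicle pileup was 20 fragments at the 5593 sites without TEAD and 20 at the 4586 with TEAD, and the median control pileup was 21.1 and 20.5. Local background, the pileup expected at the site on the scale of each list, on which a control fragment counts 0.587 and a vehicle fragment 1, was 2.13 without and 2.43 with TEAD in the vehicle list, and 2.22 and 2.77 in the control list. The vehicle background was within 1% of its genome-wide floor at 8.39% (7.69 to 9.14) of the sites without TEAD and at 2.62% (2.19 to 3.12) of those with it. Median fold was higher without TEAD, 6.78 against 6.06 in the vehicle and 6.40 against 5.81 in the control list. The sites without TEAD were also narrower, with a median control width of 295 bp against 320 bp, and their summits were closer between the lists, 29 bp apart against 38 bp.

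Away from the site itself, TEAD within 10 kb was sparser around the lost sites without TEAD than around sites kept in both lists or sites with TEAD. The nearest TEAD peak lay 20802 bp away at the median (5175 to 58598), 13093 bp at the 269 sites without TEAD kept in both, 11401 bp at the 195 kept in the siTEAD4-labelled list alone and 19858.5 bp (4437.5 to 66954) at the 76 kept with XMU-MP-1 alone, so the last class lay about as far from TEAD. A TEAD peak within 10 kb, not counting one on the site, was present at 1980 of 5593 sites (35.4%, 34.2 to 36.7). This share was 44.2% (38.4 to 50.2) at sites without TEAD kept in both, a difference of -8.84 percentage points (95% Newcombe interval -14.9 to -2.89). It was 54.0% (52.6 to 55.5) at sites with TEAD lost in both, a difference of -18.6 points (-20.5 to -16.7), and 64.2% (61.0 to 67.3) at sites with TEAD kept in both, a difference of -28.8 points (-32.1 to -25.4). At 100 kb the difference from sites without TEAD kept in both was -1.75 points, and its interval, -5.27 to 2.80, includes 0. The intervals treat sites as independent and cover their counting only.

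Treated p65 binding was sparse near them as well. A p65 peak of either treated list lay within 10 kb at 444 sites (7.94%, 7.26 to 8.68). At sites without TEAD kept in both, a further treated peak lay within 10 kb at 17.8% (13.7 to 22.9), and the difference was -9.91 points (-15.0 to -5.73). At sites with TEAD lost in both the share was 13.04% (12.1 to 14.05), a difference of -5.10 points (-6.32 to -3.90). The median distance to a treated peak was 282764 bp at the sites without TEAD and 178087 bp at the lost sites with TEAD.

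**Figure D3:**
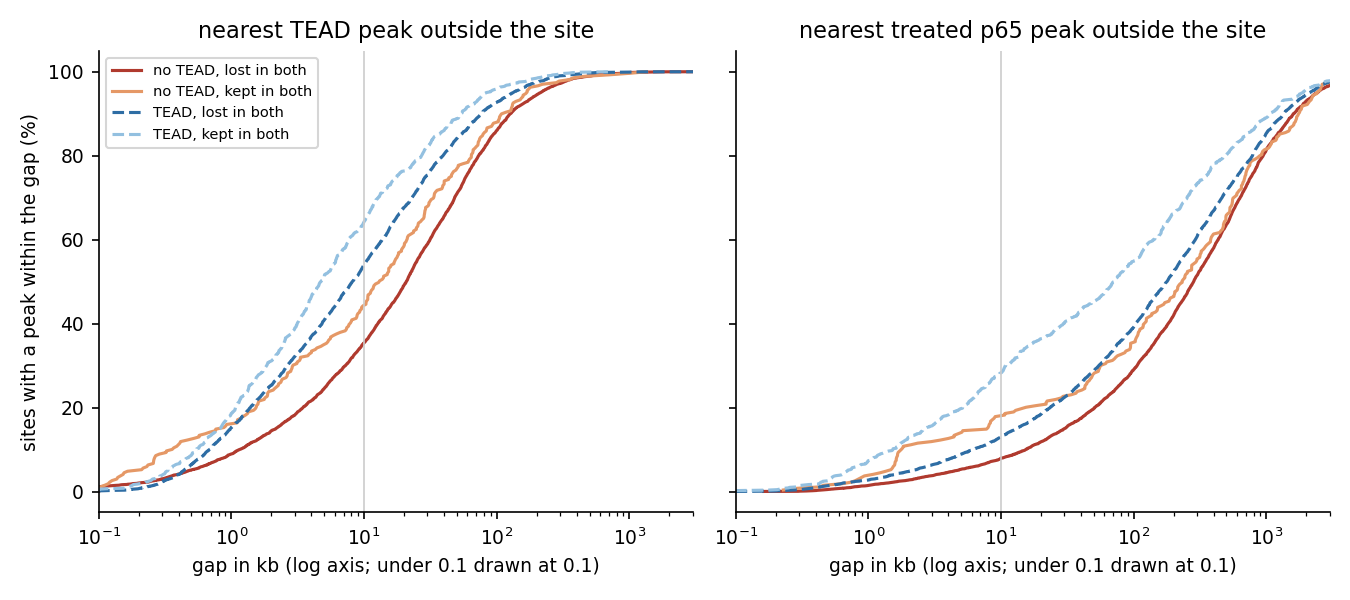
Cumulative percentage of sites (y axis) with a peak within a given gap in kb (x axis, log scale), for the nearest TEAD peak outside the site (left) and the nearest treated p65 peak outside the site (right), in 4 classes of control and vehicle p65 sites; the grey line marks 10 kb. At 10 kb the sites without TEAD lost in both stand at 35.4% on the left and 7.94% on the right, below the other 3 classes.

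Other p65 sites lay close to these sites less often than to lost sites with TEAD or to sites kept in both treated lists. Whether the sites were closer together than random placement would give was not tested. Another control and vehicle p65 site of any class was within 10 kb of 28.9% of them (27.8 to 30.1). Among lost sites with TEAD the share was 41.4% (40.01 to 42.9), a difference of -12.5 points (-14.4 to -10.6). Sites without TEAD kept in both had much the same share, 41.6% (35.9 to 47.6), a difference of -12.7 points (-18.8 to -6.85). At sites with TEAD kept in both it was 55.1% (51.8 to 58.3). No other control peak lay within 50 kb of 1897 sites (33.9%, 32.7 to 35.2). For 745 sites (13.3%, 12.5 to 14.2) neither a TEAD peak nor a treated p65 peak lay within 100 kb. A second site of the same class was within 10 kb at 845 sites (15.1%, 14.2 to 16.1), and a site of this class lay within 10 kb of 16.2% (15.2 to 17.3) of the lost sites with TEAD. That difference was -1.14 points, and its interval, -2.56 to 0.280, includes 0.

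Joined across gaps of up to 10 kb, the sites formed 4748 single sites, 350 pairs and 46 longer runs. No run held more than 4 sites, and 7 runs held 4. The run on chromosome 17 from 75419745 to 75423710 was the shortest of them, with 4 control and 4 vehicle peaks in 3.97 kb. Its control folds were 5.68, 7.37, 8.70 and 5.23, and its vehicle folds 10.1, 7.04, 9.90 and 5.19. No TEAD or treated p65 peak fell inside it, and the TEAD gaps were 2566 to 6246 bp. All 4 of its sites were thus of moderate strength, and every control and vehicle peak in the span belonged to this class.

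The run on chromosome 19 from 45248472 to 45257929 was built otherwise, around 1 dominant site. Control folds in it were 12.2, 25.9, 9.58 and 5.12, and vehicle folds 12.8, 26.02, 11.9 and 7.32. Its span held 5 control peaks, and the one that was not of the class carried the single siTEAD4-labelled, XMU-MP-1 p65 and TEAD peaks of the span. Lost sites without TEAD here stood beside a p65 site with TEAD that was kept in both. The run on chromosome 2 from 47074444 to 47089898 likewise held 1 siTEAD4-labelled and 1 XMU-MP-1 p65 peak, with 4 TEAD peaks. On chromosome 11 from 118783671 to 118799116 there were 3 TEAD peaks and no treated p65 peak, and the control folds were 3.60 to 5.98. On chromosome 17 from 27046302 to 27055424 all 4 control peaks belonged to the run, and the nearest treated peak was 944822 bp away. The runs on chromosomes 10 (30783164 to 30799860) and 4 (7960171 to 7980128) had 1 TEAD peak each, highest control folds of 10.9 and 11.2, and no treated p65 peak.

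Where TEAD was not on the site, the share of sites lost was lowest in the bin nearest to a TEAD peak. Among the 6133 control and vehicle sites without a TEAD peak, 499 of the 570 with one closer than 1 kb were lost in both (87.5%, 84.6 to 90.01), and 1626 of the 1759 with none within 50 kb (92.4%, 91.1 to 93.6). The difference was -4.90 percentage points (-8.07 to -2.10). At equal strength, over 10 classes of −log10 q read in both lists, the shares were 86.6% and 91.7%. The lowest share was in the closest bin, under 500 bp, with 287 of 339 (84.7%, 80.4 to 88.1). The next, from 500 bp to 1 kb, had 212 of 231 (91.8%, 87.5 to 94.7), above the 88.2%, 90.6% and 89.6% of the bins between 1 and 10 kb, and the bins from 10 kb outward stood between 91.8% and 93.04%. Against the sites with no TEAD peak within 50 kb, the bin under 500 bp differed by -7.78 points (-12.2 to -4.08) and the bin from 500 bp to 1 kb by -0.664 points (-5.08 to 2.52). In the shares not set to equal strength, the difference for gaps under 1 kb thus came mostly from gaps under 500 bp. At equal strength the bin from 500 bp to 1 kb stood at 89.7%, below the 91.7% with no TEAD peak within 50 kb. The intervals of these near bins overlap, and their comparison was chosen after seeing the data. Median width was between 298 and 313 bp over the bins, and 311 bp in the closest. The part of width in the share lost was not tested.

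**Figure D4:**
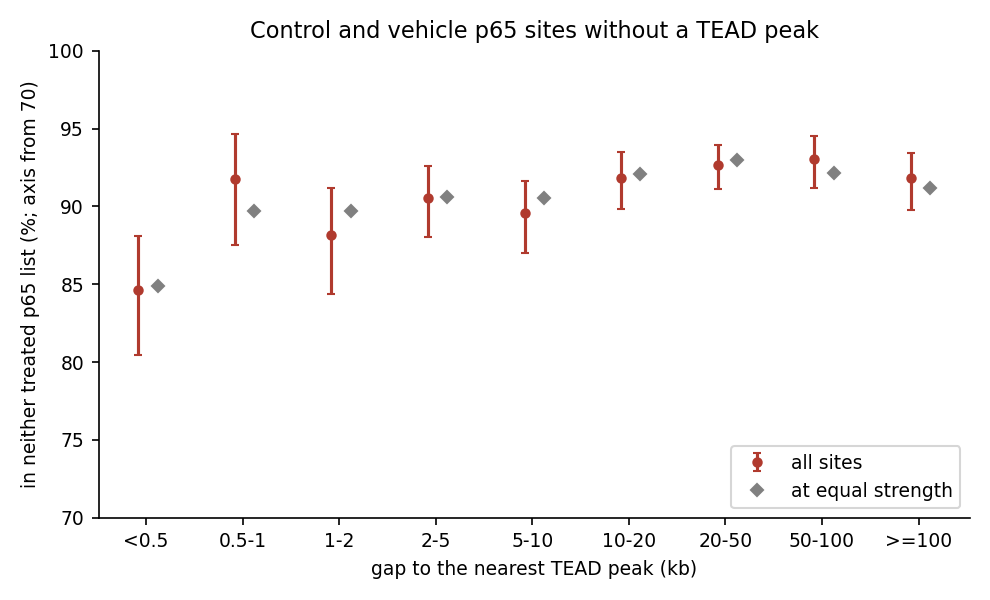
Percentage of control and vehicle p65 sites without a TEAD peak that are in neither treated p65 list (y axis, from 70), by the gap in kb to the nearest TEAD peak (x axis); circles are all sites with 95% Wilson intervals, diamonds the shares at equal strength. The bin under 0.5 kb stands at 84.7%, the next at 91.8%, and the 4 bins from 10 kb outward at 91.8% to 93.04%.

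Few sites sat near the boundary that the rule drew. A TEAD peak lay within 100 bp of 61 sites (1.09%, 0.850 to 1.40), and 2 sites touched one with a gap of 0 bp: chromosome 16 from 1662078 to 1662310, with folds of 3.81 in control and 6.03 in vehicle cells, and chromosome 2 from 46561968 to 46562152, with 4.001 and 5.11. Just outside, the control peak on chromosome 8 from 23656574 to 23656962 overlapped a TEAD peak of fold 13.8 by 7 bp, and the peak on chromosome 12 from 31886163 to 31886919 overlapped one of fold 13.01 by 9 bp. No site of the class lay within 100 bp of a treated p65 peak (0 of 5593 for each list, upper Wilson bound 0.0686%). Within the control list itself, no other peak lay closer than 151 bp to a site of the class. The part of this spacing of called peaks in the absence of shorter gaps was not tested. The smallest gaps were 163 bp to a peak labelled siTEAD4 and 225 bp to an XMU-MP-1 p65 peak, both at the site on chromosome 9 from 20621217 to 20621530, with control and vehicle folds of 4.33 and 4.22. Just outside, the smallest overlaps were 33 bp with a siTEAD4-labelled peak, on chromosome 10 from 88413942 to 88414297, and 150 bp with an XMU-MP-1 peak, on chromosome 8 from 23268605 to 23268809.

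Some sites overlapped a vehicle peak whose summit was elsewhere. On chromosome 2 from 238039499 to 238039838 a site of control fold 4.27 took the highest vehicle fold of the class, 41.9, from a summit 2609 bp away. An XMU-MP-1 p65 peak lay 1823 bp from it, a siTEAD4-labelled peak 1804 bp and another control peak 460 bp from it. Another case, on chromosome 2 from 206577815 to 206578075, had folds of 5.96 and 17.9 with summits 501 bp apart, and a further one, on chromosome 3 from 197081596 to 197081780, had 4.35 and 13.4 with summits 696 bp apart. Such sites were few: summits were more than 200 bp apart at 126 sites (2.25%, 1.90 to 2.68), whose median control fold was 4.89, and the vehicle peak itself overlapped a TEAD peak at 58 sites and a treated p65 peak at 7. Of the 126, 21 had a vehicle peak that overlapped a peak of at least 1 of the 3 barring lists, and of the other 5467 sites 39 did.

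High vehicle fold with matching summits was seen elsewhere. On chromosome 1 from 105307763 to 105308103 the folds were 17.7 in control and 26.2 in vehicle cells, with summits 24 bp apart, no TEAD peak for 494998 bp and no treated p65 peak for 4219815 bp. On chromosome 11 from 71200317 to 71200689 they were 16.8 and 25.9. Both were among the 5 highest vehicle folds of the class.

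The 5 broadest control peaks of the class stood between percentiles 81.2 and 95.9 of control fold. The widest, on chromosome 20 from 37218681 to 37220287, spanned 1607 bp with folds of 10.96 in control and 11.8 in vehicle cells, and a TEAD peak 858 bp away. The next were on chromosome 17 from 4852157 to 4853476 (1320 bp, 10.4 and 8.95), chromosome 15 from 40549843 to 40551119 (1277 bp, 12.3 and 7.99), chromosome 9 from 140044911 to 140046177 (1267 bp, 9.53 and 11.6) and chromosome 7 from 158168841 to 158170096 (1256 bp, 16.9 and 16.0). Of the class as a whole, 10% of peaks were wider than 456 bp.

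The share of sites in the class varied by chromosome. Chromosome X had the highest share, 119 of its 199 control and vehicle sites (59.8%, 52.9 to 66.4), and chromosome 21 the lowest, 63 of 176 (35.8%, 29.1 to 43.1), against 45.6% overall. With chromosome 4 (224 of 433, 51.7%, 47.0 to 56.4), these were the 3 of 23 chromosomes whose interval did not include the overall share. For chromosome 4 the lower end of the interval lay close to that share. The intervals treat sites as independent and are not adjusted for the number of chromosomes. Some of the 23 can therefore miss the overall share by chance. On chromosome X 65.8% (59.0 to 72.1) of sites had no TEAD peak, and on chromosome 21 40.3% (33.4 to 47.7). Within the sites without TEAD, the share lost ranged from 86.6% (76.4 to 92.8) on chromosome 13 to 94.3% (91.1 to 96.4) on chromosome 8. Chromosome 1, with 88.4% (85.7 to 90.6), was the single one whose interval did not include the overall 91.2%. Among 23 unadjusted intervals, that miss does not set chromosome 1 apart. Whether the chromosomes differed beyond chance in either share was not tested.

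Local background at the sites varied by chromosome more than their fold. On chromosome X the median background of the sites was 1.25 in the vehicle and 1.36 in the control list, both at the genome-wide floor and 0.588 and 0.611 times the median of all 5593 sites. Chromosome 13 had the same values, and chromosome 8 the highest, 2.82 and 3.0. Median control fold ranged from 5.93 on chromosome 8 to 6.71 on chromosome 11, and stood at 6.65 on chromosome X. On chromosomes 8, 13 and X both lists differed from their overall median in the same direction, while chromosome 21 stood at 0.961 times it in the vehicle and 1.02 times in the control list. The part of background in the share of sites per chromosome was not tested.

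**Figure D5:**
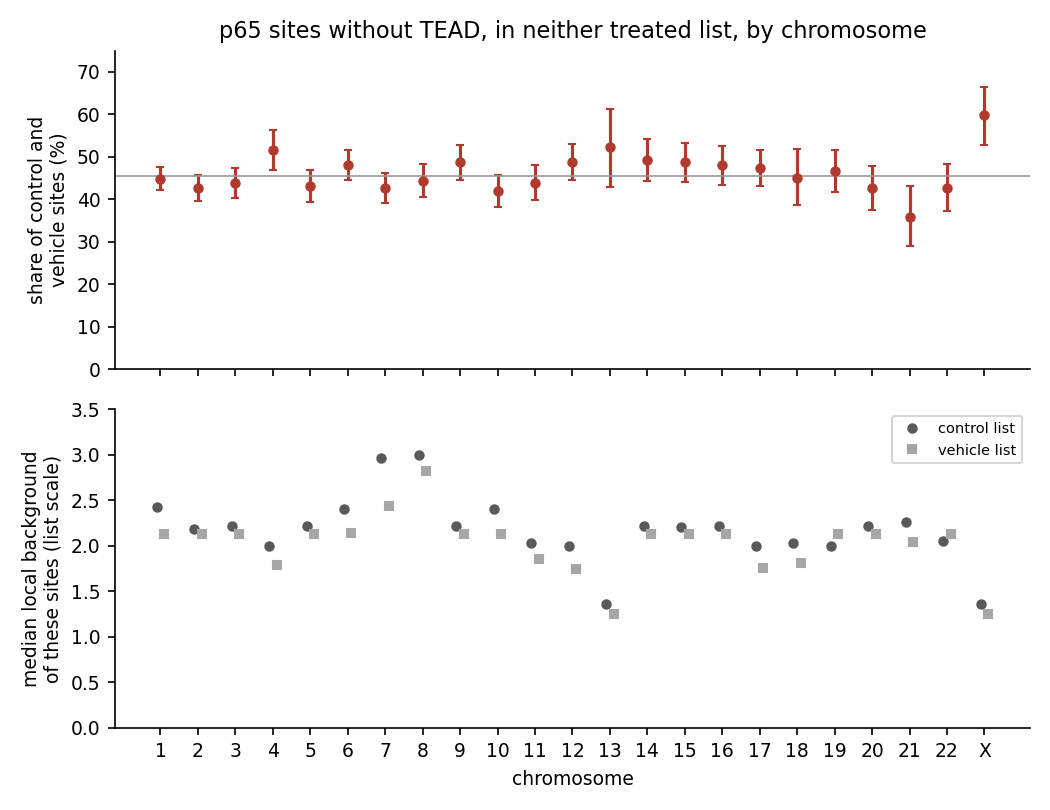
Top: percentage of control and vehicle p65 sites that have no TEAD peak and are in neither treated list, by chromosome, with 95% Wilson intervals and a grey line at the overall 45.6%. Bottom: median local background of these sites in the control and vehicle lists, each on its own pileup scale (0.587 per control fragment, 1 per vehicle fragment); chromosomes 13 and X are lowest in both and chromosome 8 highest.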

How the data were processed

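Chromatin immunoprecipitation sequencing was read from 5 lists of peaks, 1 library each, out of 9 libraries, of which 4 are input chromatin. The labels' protocols give fixation in 1% formaldehyde for 10 min and size selection at 300 to 700 bp. Per the submitters' processing notes, fastp, MACS2 and Bowtie2 2.4.5 served for processing on hg19. MACS2 settings, and the input set against each list, are not given in the sources that were used. The authors deposited for each peak a fold enrichment (a ratio of summit to local background), a −log10 p, a −log10 q and a summit position. The lowest −log10 q in a list is 1.30 to 1.55. Folds of different lists are relative to different backgrounds.

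Sites were compared by an overlap of at least 1 bp (Python 3.11.15; numpy 2.4.6, pandas 2.3.3, scipy 1.17.1). A vehicle value is that of the overlapping vehicle peak with the highest fold. Pileup and background were solved from the deposited fold, read as pileup plus 1 over background plus 1, and −log10 p, with an error under 0.005. The pileup had to be a multiple of 0.587 in the control list and of 0.783 in the XMU-MP-1 list, and whole in the others. Between 99.94% and 100% of peaks per list were solved, and control values exist for 5588 of the 5593 sites. This code and the overlap code were tested on simulated data. Control fragments are the pileup divided by 0.587. Read totals are unknown. Intervals are at the 95% level. Each condition is 1 library, so differences between conditions have no check by replicates and no p-values. The regions named are the 15 sites of highest control fold, those of the 5 with the highest vehicle fold not among them, the 5 widest, the 5 of lowest control fold, sites and other peaks nearest to the rule's boundary, of which only some are printed, and the longest runs, where 7 tied. The sites, lists and rules were chosen with earlier results of these data known. Genes and sequence motifs at the sites were not analysed here, since they need hg19 annotation and sequence.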

Additional observations from a re-analysis of the deposited data

How the results depend on the processing

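No paired analysis was possible because there was a single library per condition. Over 36 recalculations, 19 values lay inside the 95% interval of the value in the report, 17 lay outside it and 0 changed sign, which only the difference by TEAD gap could do. The share of sites without TEAD that were lost in both, 91.2%, was 89.2% with overlap read from summits within 200 bp. It was 88.98% and 87.5% with all lists restricted to a −log10 q of 5 and of 10, 87.8% with control and vehicle folds of 5 or more, and 88.9% with TEAD peaks counted from a −log10 q of 10. One treatment alone gave 94.4% (XMU-MP-1) and 92.4% (labelled siTEAD4), since fewer lists can then bar a site. With all lists restricted to a −log10 q of 5, median control fold was 7.14 and median vehicle fold 7.62, and a TEAD peak, a treated p65 peak and another site of the class lay within 10 kb of 30.4%, 6.99% and 13.5%. Where an overlap had to cover 50% of the shorter peak, a TEAD peak lay within 10 kb of 36.9%. Inside 50 kb those neighbours were found at 70.9%, 19.8% and 40.03%, as a wider window must give. The cause of the remaining moves was not tested. The difference by TEAD gap was -4.06 to -7.78 points in 6 of its 7 alternatives and -0.664 points (-5.08 to 2.52) without gaps under 0.5 kb; all 7 were chosen after seeing the data, as was the reading of barring peaks at the vehicle peak. The planned results on gene starts and motifs were not run. Peak lists limit every statement to signal above each list's own calling threshold, and depth is unknown.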

Other observations

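Sites called in only 1 of the control and vehicle lists often had no TEAD or treated p65 peak either, and those that had none were weaker than the 5593 sites found in both. Of 3164 control peaks with no vehicle peak, 1967 (62.2%, 60.5 to 63.8) had no TEAD peak and were in neither treated list, with a median control fold of 4.95 (4.30 to 5.65) and a highest fold of 10.6. Of 5645 vehicle peaks with no control peak, 3590 (63.6%, 62.3 to 64.8) were of this kind, with a median vehicle fold of 4.89 (4.25 to 5.67) and a highest fold of 11.3. A TEAD peak was present at 1188 of the 3164 control peaks (37.5%, 35.9 to 39.2).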
